A study of Mus musculus with 12 samples.

Results

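Cyclic nucleotide signalling genes were described in mouse splenic B cells sorted by the number of divisions they had completed after lipopolysaccharide (LPS), a bacterial B cell stimulus. The 10 genes were taken by symbol: Adcy7, Pde2a, Pde3b, Pde4a, Pde4b, Pde4d, Pde7a, Prkar1a, Prkar2b and Rapgef4. All 10 symbols were found among the 21671 genes of the count table that carry a symbol, and all 10 passed the filter on low counts that left 12026 genes for testing. The genes had been picked with their pattern over these same 6 groups in view, so their levels and calls are a description. Adjusted p-values are printed for them only where an alternative setting gains or loses a call, and support nothing.

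B cells (B220+ CD43-) of naive C57/BL6J mice were labelled with a division dye, CFSE or CTV, and moved into uMT hosts, which lack mature B cells of their own. The samples' strain label reads B6.SJL-Ptprca Pepcb/BoyJ, female, 8 weeks old, so donor strain and strain label differ. All groups received LPS and were sorted from spleen on day 3, and there was no group without LPS. The groups are cells at 0, 1, 3 and 5 divisions (Div0, Div1, Div3 and Div5) and cells at 8 or more divisions without or with the plasma cell surface protein CD138 (Div8neg and Div8pos). Each group has 2 libraries, 1 from each of 2 hosts numbered 196 and 197. Div0 cells were therefore exposed to LPS without dividing and are not resting cells from an untreated animal. The labels do not say how many donors contributed to each host, so the 2 libraries measure the spread between hosts, and p-values speak for these hosts only. The 12 libraries held 11541406 to 14961666 gene counts and 113723 to 683173 counts of ERCC spike-in RNA, which was added to each sample of 40000 sorted cells before RNA extraction.

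Cyclic AMP (cAMP) is made from ATP by adenylyl cyclases, which G protein-coupled receptors switch on through the Gs protein. Phosphodiesterases break cAMP and cyclic GMP (cGMP) down, and their families differ in which of the nucleotides they take and in how they are regulated. Inside the cell cAMP is read by protein kinase A (PKA), whose regulatory subunits release the catalytic subunits when they bind it, and by EPAC proteins, which activate the small GTPase RAP1. In lymphocytes a high level of cAMP generally dampens activation through the antigen receptor, and PDE4 and PDE7 enzymes are well known in these cells. Levels of the mRNAs say nothing directly of enzyme activity or of cAMP itself, neither of which was measured.

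Values are given on 2 scales. CPM, a gene's counts scaled to the library's total with TMM factors, gives its share of the mRNA in a library, and the deposited mRNAs per cell give its level against the spike-ins. The total of mRNAs per cell was 30436 ± 4351 in Div0 (mean ± SD, n = 2), 51293 ± 12083 in Div1, 48470 ± 7015 in Div3, 71397 ± 4980 in Div5, 100154 ± 4754 in Div8neg and 162815 ± 15565 in Div8pos. Div8pos thus held 5.35-fold as many mRNAs per cell in total as Div0. A gene whose CPM stays level between these groups therefore has more mRNAs per cell in Div8pos. Its fold need not equal that of the total, because mRNAs per cell take exon length into account and CPM does not. With spike-in scaling the median log2 change over all tested genes, at each step from Div0 through Div1, Div3, Div5 and Div8neg to Div8pos, was 0.74, -0.08, 0.53, 0.49 and 0.60. Between Div0 and Div8neg it was 1.68. Several of the 10 genes were lower on the first scale and higher on the second, and each such case is given on both. In sorted bulk samples, fewer cells with a transcript and less of it in each cell cannot be told apart. Whether reads were counted by strand is not given in the sources used here, so reads of overlapping or antisense genes cannot be told apart from those of the genes named.

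Adcy7 was the only adenylyl cyclase gene among the 10, and its share of the mRNA changed little through 5 divisions. Its product is a membrane adenylyl cyclase that is prominent in blood cells. In Div0 it stood at 408 CPM in host 196 and 379 in host 197, in Div1 at 402 and 378, in Div3 at 387 and 383, and in Div5 at 371 and 363. It was at 261 CPM in both hosts in Div8neg and at 93.9 and 99.7 in Div8pos. Both Div5 libraries lay below all those of Div0, Div1 and Div3, though Div5 was not called against Div3 (log2 -0.07, SE 0.05). The libraries of Div8neg lay below all those at fewer divisions and the libraries of Div8pos lay below all the others. Div8pos was 2.70-fold below Div8neg in CPM (log2 -1.43, SE 0.06). Per cell the picture differed: Adcy7 went from 5.00 ± 0.351 mRNAs in Div0 to 8.34 ± 1.68 in Div1, 7.74 ± 1.10 in Div3, 10.7 ± 1.007 in Div5 and 10.7 ± 0.608 in Div8neg, then to 5.77 ± 0.236 in Div8pos. The per-cell level in Div8neg was 2.13-fold that in Div0, and in Div8pos 1.85-fold below that in Div8neg in the mean, with fold values of 0.580 in host 196 and 0.505 in host 197.

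Pde2a had the steepest first step. It encodes a phosphodiesterase that takes both cAMP and cGMP and is stimulated by cGMP. The share was 29.5 CPM in host 196 and 28.2 in host 197 in Div0, 3.98 and 3.83 in Div1, and 1.00 and 1.72 in Div3. It was 1.27 and 2.97 in Div5, 6.001 and 6.12 in Div8neg, and 0.320 and 1.15 in Div8pos. Both Div0 libraries were far above all others, both Div8neg libraries were above those of Div1, Div3, Div5 and Div8pos, and the libraries of Div3 and Div5 overlapped. Counts were small after Div0: 13 and 26 reads in Div3, 17 and 37 in Div5, and 4 and 13 in Div8pos, against 396 and 330 in Div0. Div1 was 7.39-fold below Div0 (log2 -2.89, SE 0.23), Div8neg was 2.86-fold above Div5 (log2 1.53, SE 0.31) and Div8pos was 8.27-fold below Div8neg (log2 -3.07, SE 0.39). Per cell its libraries were lower in Div1 than in Div0, at 0.111 ± 0.0239 against 0.487 ± 0.0449 mRNAs. Those of the other 9 genes were higher, where the total of all mRNAs was 1.69-fold that in Div0. With spike-in scaling 9810 of 12026 tested genes were called higher at this step and 16 lower. The per-cell mean of Pde2a came back to 0.328 ± 0.0236 in Div8neg, 1.49-fold below Div0, and stood at 0.0560 ± 0.0413 in Div8pos.

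Pde3b moved the other way from most of the phosphodiesterase genes. It encodes a membrane-bound, cAMP-hydrolysing enzyme that cGMP inhibits, best known in fat and liver cells downstream of insulin. The share was 54.0 CPM in host 196 and 58.5 in host 197 in Div0, 52.1 and 57.1 in Div1, and 49.4 and 53.3 in Div3. It was 60.7 and 74.5 in Div5, 90.7 and 94.1 in Div8neg, and 87.8 and 95.1 in Div8pos. The libraries of the first 3 groups overlapped, those of Div5 lay above them, and those of Div8neg and Div8pos lay above Div5 and overlapped with each other. Div8neg was 1.64-fold above Div0 in CPM (log2 0.72, SE 0.09). Per cell Pde3b went from 0.863 ± 0.154 mRNAs in Div0 to 1.416 ± 0.432 in Div1, 1.24 ± 0.252 in Div3, 2.35 ± 0.155 in Div5, 4.52 ± 0.380 in Div8neg and 6.53 ± 0.175 in Div8pos. This last mean was 7.56-fold that in Div0 (8.82-fold in host 196 and 6.59-fold in host 197), against 5.35-fold for the total of all mRNAs. In each host Pde3b passed the fold of the total (6.35-fold in host 196 and 4.53-fold in host 197).

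The PDE4 genes encode cAMP-specific phosphodiesterases, and the 3 in the set followed 3 courses. Pde4a was at 56.2 and 52.9 CPM in Div0 (host 196, then host 197), 69.9 and 78.6 in Div1, 58.1 and 63.2 in Div3, 45.8 and 44.4 in Div5, 30.8 and 30.6 in Div8neg, and 23.1 and 21.8 in Div8pos. It peaked in Div1, whose libraries lay above all others, and stood lower in each later group without overlap. Pde4b, the PDE4 gene best known for induction in activated leukocytes, was at 134 and 136 CPM in Div0, 108 and 107 in Div1, 99.3 and 97.5 in Div3, 77.2 and 81.0 in Div5, 53.0 and 52.8 in Div8neg, and 36.8 and 32.6 in Div8pos. Its libraries did not overlap between any neighbouring groups, and Div8neg was 2.56-fold below Div0 (log2 -1.35, SE 0.06). Pde4d was at 70.7 and 70.3 CPM in Div0, 78.0 and 77.7 in Div1, 84.6 and 78.0 in Div3, 59.8 and 53.8 in Div5, 15.8 and 14.4 in Div8neg, and 2.96 and 2.03 in Div8pos. Its drop thus came late: Div8neg was 3.76-fold below Div5 (log2 -1.91, SE 0.09) and Div8pos was 6.06-fold below Div8neg (log2 -2.58, SE 0.16).

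Per cell the 3 PDE4 genes parted further. Pde4a was at 0.574 ± 0.0456 mRNAs in Div0 and between 1.012 and 1.33 in the mean of every later group. Pde4b ranged from 1.25 ± 0.170 in Div0 to 1.67 ± 0.397 in Div1, and its libraries in Div8pos (1.69 and 1.33) overlapped those of Div0 (1.13 and 1.37). Both genes were lower in Div8neg than in Div0 as a share (log2 -0.83 and -1.35). With spike-in scaling Pde4a was called higher there (log2 0.86, SE 0.23) and Pde4b was not called (log2 0.33, SE 0.22). Pde4d was higher per cell in Div1 than in Div0 (0.931 ± 0.224 against 0.501 ± 0.0597), at 0.905 and 0.925 in Div3 and Div5, and then lower, at 0.343 ± 0.00347 in Div8neg and 0.0838 ± 0.0288 in Div8pos. With spike-in scaling Pde4d in Div8pos was still 3.998-fold below Div8neg (log2 -2.00, SE 0.29). The lengths behind these levels sum all exons of a gene (11374 bases for Pde4d, 8737 for Pde4b and 7655 for Pde4a), so which of their many isoforms was used bears on the level and was not measured.

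Pde7a, which encodes another cAMP-specific phosphodiesterase, had the highest per-cell level of the 6 phosphodiesterase genes described here up to Div5. The share was 115 CPM in host 196 and 107 in host 197 in Div0, 119 and 102 in Div1, 110 and 80.6 in Div3, 80.2 and 69.4 in Div5, 52.5 and 48.3 in Div8neg, and 48.2 and 46.9 in Div8pos. The hosts stood furthest apart in Div3, and the libraries of Div0, Div1 and Div3 overlapped. Div8neg was 2.20-fold below Div0 in CPM (log2 -1.14, SE 0.12). Per cell the mean was 2.46 ± 0.181 mRNAs in Div0, 3.27 ± 0.222 to 4.08 ± 0.544 in Div1, Div3, Div5 and Div8neg, and 4.94 ± 0.506 in Div8pos.

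The effector genes came in at opposite ends of the range of levels. Prkar1a encodes the widely expressed type I alpha regulatory subunit of PKA. The share was 341 CPM in host 196 and 356 in host 197 in Div0, 347 and 326 in Div1, 345 and 338 in Div3, 330 and 330 in Div5, 317 and 311 in Div8neg, and 271 and 262 in Div8pos. The first 3 groups overlapped, and Div8neg was 1.11-fold and Div8pos a further 1.18-fold lower (log2 -0.15 and -0.24, SE 0.05 for both). Per cell it was at 8.20 ± 1.26 mRNAs in Div0, 13.2 ± 2.64 in Div1, 12.6 ± 1.69 in Div3, 17.7 ± 1.38 in Div5, 23.6 ± 1.05 in Div8neg and 29.3 ± 3.08 in Div8pos. Prkar2b, a type II regulatory subunit gene, had 19 to 32 counts in each library, and its mean lay between 1.77 and 2.14 CPM in all groups. At that depth no step of Prkar2b in CPM could be told from the spread: its SE was between 0.27 and 0.28 on the log2 scale in each comparison. Per cell its mean went from 0.0439 ± 0.00429 mRNAs in Div0 to 0.241 ± 0.0236 in Div8pos, or 5.48-fold (6.29-fold in host 196 and 4.77-fold in host 197), beside 6.35-fold and 4.53-fold for the total.

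The upstream sequence of Prkar1a is shown because it holds, alone among the windows of these genes, the palindrome TGACGTCA, the letters of the cAMP response element that CREB proteins bind. Windows of 250 bases before annotated starts were taken from RefSeq (GRCm38.p6; the deposited tables use mm9) and found for 8 of the 10 genes, 25 windows in all. The palindrome, which reads the same on both strands, is in 508 of 32851 windows of that length (1.55%). The shorter motif TGACG, or CGTCA on the other strand, which every palindrome also contains, is in 5836 (17.8%). In Prkar1a it begins 49 bases before 1 of 6 listed starts. The 30 bases at chr11:109650889-109650918 on the plus strand are, with the palindrome in capitals:
Prkar1a: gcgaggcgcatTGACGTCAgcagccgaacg
The shorter motif also lies in 1 window each of Pde4a, Pde4b and Adcy7 and in 2 other windows of Prkar1a. Of these, the window at chr11:109650612-109650861 overlaps the window with the palindrome (chr11:109650699-109650948), and its site is at the same bases as a site there. Which start the cells used was not measured, and a match of letters is a description of the sequence only.

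Rapgef4 had the widest range of the 10 genes and was the one that reached 0. It encodes EPAC2, a cAMP-activated exchange factor for RAP1. The share was 32.2 CPM in host 196 and 26.4 in host 197 in Div0, 31.0 and 26.1 in Div1, 27.2 and 18.03 in Div3, 12.1 and 9.14 in Div5, 2.16 and 0.765 in Div8neg, and 0 and 0 in Div8pos. The libraries of Div0, Div1 and Div3 overlapped, and each group after that lay wholly below the one before. In reads this was 433 and 309 in Div0, 162 and 114 in Div5, 31 and 10 in Div8neg and 0 in both Div8pos libraries. Div5 was 2.13-fold below Div3 (log2 -1.08, SE 0.22) and Div8neg 7.24-fold below Div5 (log2 -2.82, SE 0.36). Against a floor of 3 counts over the 2 Div8pos libraries, Div8pos was at least 11.6-fold lower than the mean of Div8neg in CPM, or at least 17.2-fold against the Div8neg library of host 196 and 6.07-fold against that of host 197. Per cell Rapgef4 went from 0.225 ± 0.00393 mRNAs in Div0 to 0.367 ± 0.0449 in Div1, 0.270 ± 0.0382 in Div3, 0.189 ± 0.0516 in Div5 and 0.0356 ± 0.0224 in Div8neg. In Div8pos it was at least 7.81-fold lower than in Div8neg (11.3-fold with host 196 and 4.33-fold with host 197 as the reference) and at least 49.5-fold lower than in Div0, with the same floor, which covers counting error only.

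RefSeq lists 1 start for Rapgef4 in the table used, and the 250 bases before it, shown as the upstream sequence of the gene with the widest range, are chr2:71980965-71981214 on the plus strand of GRCm38.p6. They overlap 0 bases of annotated exons, 73.6% of them are G or C, and neither the palindrome nor the shorter motif is among them.
Rapgef4: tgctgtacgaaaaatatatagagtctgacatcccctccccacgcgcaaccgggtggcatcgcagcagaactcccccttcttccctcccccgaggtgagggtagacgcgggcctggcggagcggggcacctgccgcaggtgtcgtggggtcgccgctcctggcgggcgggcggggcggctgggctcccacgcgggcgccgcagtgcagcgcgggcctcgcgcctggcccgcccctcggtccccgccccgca
No letters are in capitals here because no motif searched was found.

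**Figure D1:**
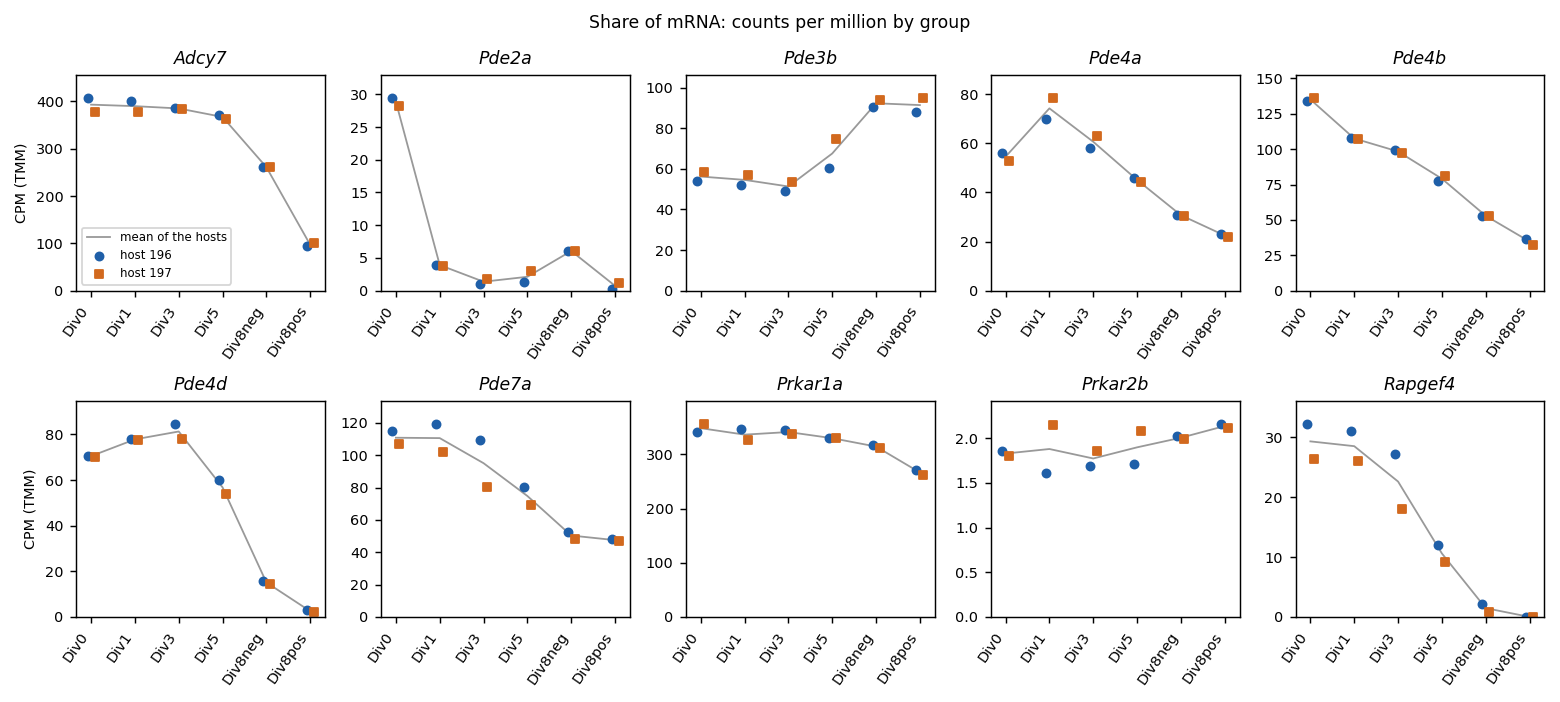
CPM of each gene (vertical axis, from 0) in the 6 sorted groups (horizontal axis), with circles for host 196, squares for host 197 and a line through the mean. Rapgef4 and Pde4d drop late, Pde2a drops at the first division, and Pde3b is higher at 8 or more divisions, at 90.7 and 94.1 CPM in Div8neg against 54.0 and 58.5 in Div0.

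**Figure D2:**
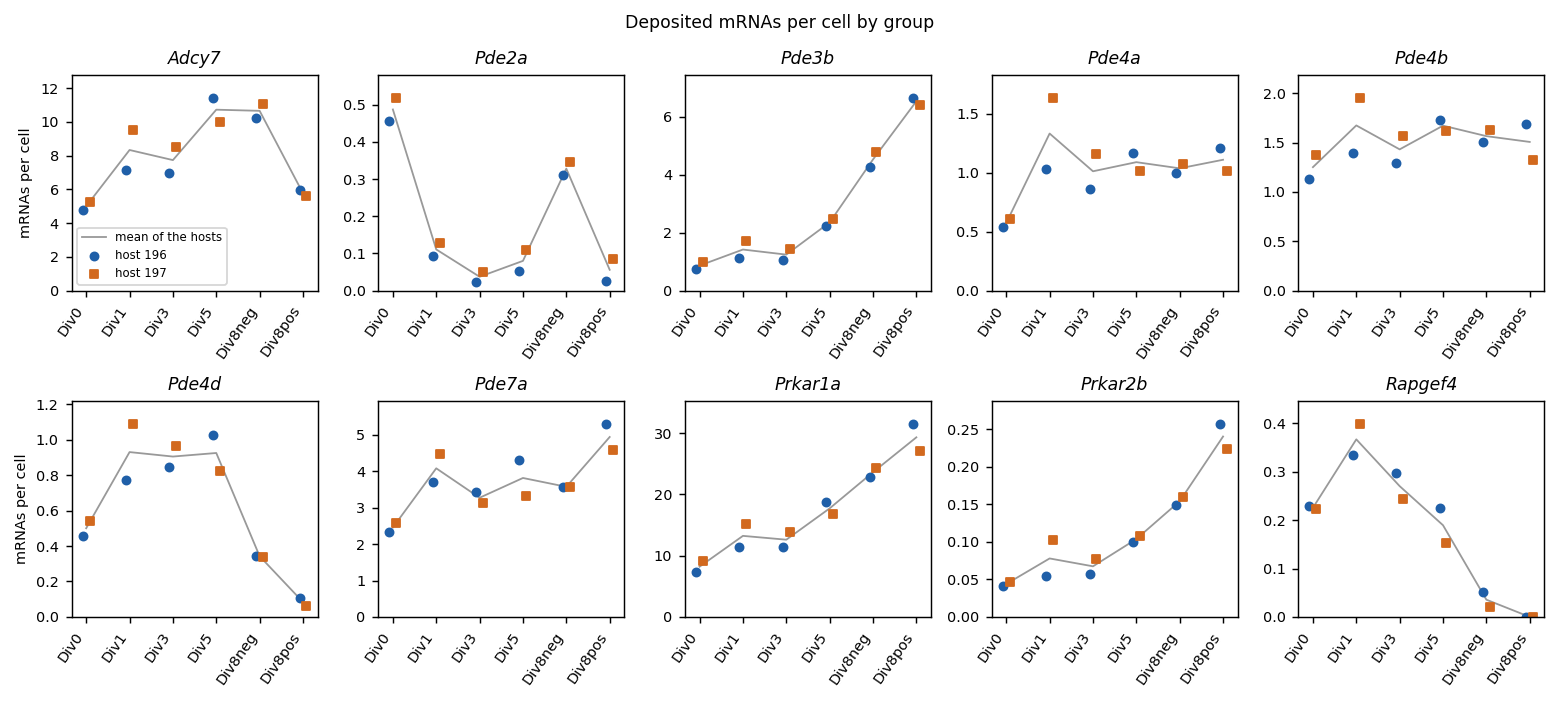
Deposited mRNAs per cell of the same genes and groups, drawn as in the plot of CPM. Prkar1a and Pde3b climb to Div8pos, Adcy7 is highest in Div5 and Div8neg at 10.7 per cell in the mean of each, and Pde4d and Rapgef4 still drop.

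Ordered by mRNAs per cell, which takes exon length into account, Prkar1a was first of the 10 in every group. In Div0 the order was Prkar1a, Adcy7, Pde7a, Pde4b, Pde3b, Pde4a, Pde4d, Pde2a, Rapgef4 and Prkar2b. Of these neighbours Pde4a and Pde4d overlapped between hosts, and so did Pde4d and Pde2a. In Div8pos the order was Prkar1a, Pde3b, Adcy7, Pde7a, Pde4b, Pde4a, Prkar2b, Pde4d, Pde2a and Rapgef4, with overlap between Pde4d and Pde2a. Pde3b thus went from rank 5 to rank 2 and passed Pde7a in Div8neg (4.52 against 3.57 mRNAs per cell) and Adcy7 in Div8pos (6.53 against 5.77), with no overlap between hosts in either pair.

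Of the 6 phosphodiesterase genes, Pde7a held the largest share of phosphodiesterase mRNA in Div0, and Pde3b in Div8neg and Div8pos. Shares were taken within each library over the mRNAs per cell of 21 genes for catalytic subunits, so the spike-in factor of the library cancels. Pde3b held 11.0% ± 0.977 in Div0, 10.9% ± 1.00 in Div1, 11.0% ± 1.32 in Div3, 16.7% ± 2.51 in Div5, 28.5% ± 1.47 in Div8neg and 38.5% ± 1.05 in Div8pos (SD, n = 2). The 3 PDE4 genes together held 29.7% ± 0.823 in Div0, 26.0% ± 0.108 in Div5, 18.6% ± 0.263 in Div8neg and 15.9% ± 1.63 in Div8pos. Pde7a held 31.4% ± 0.544 in Div0, 22.5% ± 0.748 in Div8neg and 29.1% ± 1.41 in Div8pos. Pde2a went from 6.23% ± 0.00752 in Div0 to 0.860% in Div1 and 0.337% ± 0.262 in Div8pos. The other 15 genes together held 21.6% ± 1.26 in Div0, 28.3% ± 1.07 in Div8neg and 16.2% ± 1.73 in Div8pos. Summed over all 21 genes there were 7.82 ± 0.711 mRNAs per cell in Div0 and 17.0 ± 0.916 in Div8pos. These shares come from the same libraries that chose the genes and are a description.

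**Figure D3:**
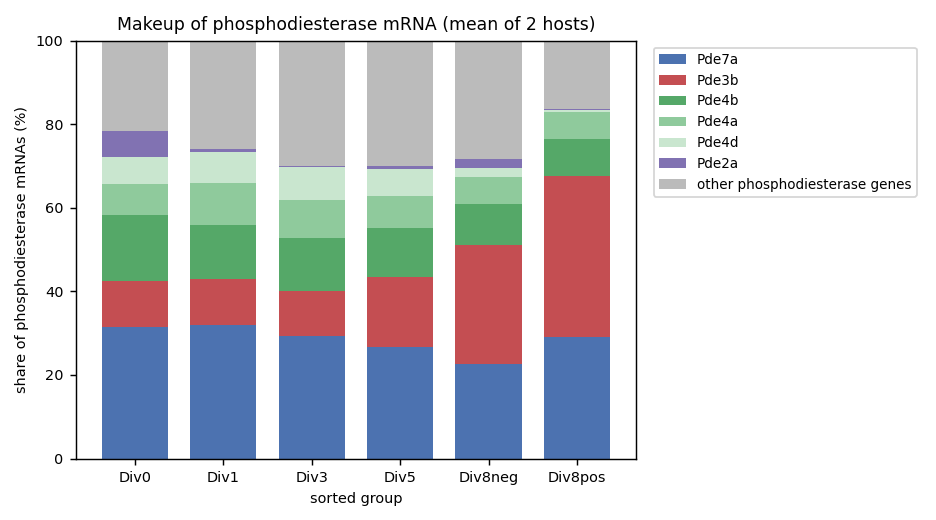
Share of phosphodiesterase mRNAs per cell (vertical axis, percent) held by each of the 6 phosphodiesterase genes and by the other 15 together, as the mean of 2 hosts for each group on the horizontal axis. The Pde3b band widens from 11.0% in Div0 to 38.5% in Div8pos.

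Calls were made with edgeR's quasi-likelihood test at a Benjamini-Hochberg adjusted p under 0.05 over all 12026 genes. Because the genes were picked on these comparisons, nothing is read from their counts, and the share of all tested genes called stands beside each. At the first division, Div1 against Div0, 1 of the 10 was called higher (Pde4a) and 2 lower (Pde2a and Pde4b), where 9.35% of all genes were called. In Div3 against Div1, Pde2a and Pde4a were called lower, where 3.42% of all genes were called. Rapgef4 was called lower there as well when the host was fitted as a block (edgeR adjusted p = 0.0472). So was Pde7a with no filter on low counts (edgeR adjusted p = 0.0466). Its log2 change there was -0.22, and -0.46 without the Div3 library of host 196, where it was also called. In Div5 against Div3, Pde3b was called higher and Pde4a, Pde4b, Pde4d, Pde7a and Rapgef4 lower, where 26.6% of all genes were called. In Div8neg against Div5, Pde2a and Pde3b were higher and Pde4a, Pde4b, Pde4d, Pde7a, Rapgef4 and Adcy7 lower, where 53.4% of all genes were called. In Div8pos against Div8neg, 7 were called lower (Pde2a, Pde4a, Pde4b, Pde4d, Rapgef4, Adcy7 and Prkar1a), where 72% of all genes were called. Over the whole span without CD138, Div8neg against Div0, Pde3b was higher and 8 genes were lower, with Prkar2b not called, where 71% of all genes were called. Neighbouring comparisons share a group and are not independent of each other.

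The median log2 change of the 10 genes was -0.03, -0.11, -0.19, -0.52, -0.53 and -0.98 in those 6 comparisons in the same order, and that of all tested genes was within 0.02 of 0 in each. The value for Div8pos against Div8neg was also -0.53 with Rapgef4 set to its bound. That setting could not move the median, because Rapgef4 is the lowest of the 10 genes either way. The Pde2a call in Div3 against Div1 was lost when any of the 4 Div1 and Div3 libraries was left out (edgeR adjusted p 0.0502 to 0.158), with log2 changes of -1.95 to -1.18 against -1.49 with all of them. The Pde4a call there was lost without the Div3 library of either host or the Div1 library of host 197 (edgeR adjusted p 0.0534 to 0.234) and by DESeq2 (adjusted p = 0.141). In Div5 against Div3 the Pde3b call was lost without Div3 of host 196 (edgeR adjusted p = 0.0526) or Div5 of host 197 (0.121). The Pde7a call there (log2 -0.34) was lost with the 2 compared groups alone (edgeR adjusted p = 0.0706). It was also lost without either of the same libraries (log2 -0.11 and -0.25) or any library of Div8neg or Div8pos. In Div8neg against Div0 the Prkar1a call was lost without Div0 of host 197 or either Div8neg library (edgeR adjusted p 0.0537 to 0.104).

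With library sizes set by the spike-ins, several of these directions turned. In Div1 against Div0, 7 of the 10 genes were called higher and Pde2a lower, where 81.7% of all genes were called. In Div3 against Div1, Pde2a was the single call, where 0.74% of all genes were called. In Div5 against Div3, Pde2a and Pde3b were called higher, where 45.7% of all genes were called; with the host as a block as well, Prkar1a was called higher (edgeR adjusted p = 0.0436) and Rapgef4 lower, 4 genes in all. In Div8neg against Div5, Pde2a and Pde3b were higher and Pde4d and Rapgef4 lower, where 45.4% of all genes were called. In Div8pos against Div8neg, Pde3b and Pde7a were higher and Pde2a, Pde4d, Rapgef4 and Adcy7 lower, where 66.5% of all genes were called. In Div8neg against Div0, 6 were higher and Pde2a, Pde4d and Rapgef4 lower, where 90.8% of all genes were called. Pde4d and Rapgef4 were lower than Div5 in Div8neg, and lower again in Div8pos, on both scales. Pde3b was higher on both scales in Div5 against Div3, Div8neg against Div5 and Div8neg against Div0.

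**Figure D4:**
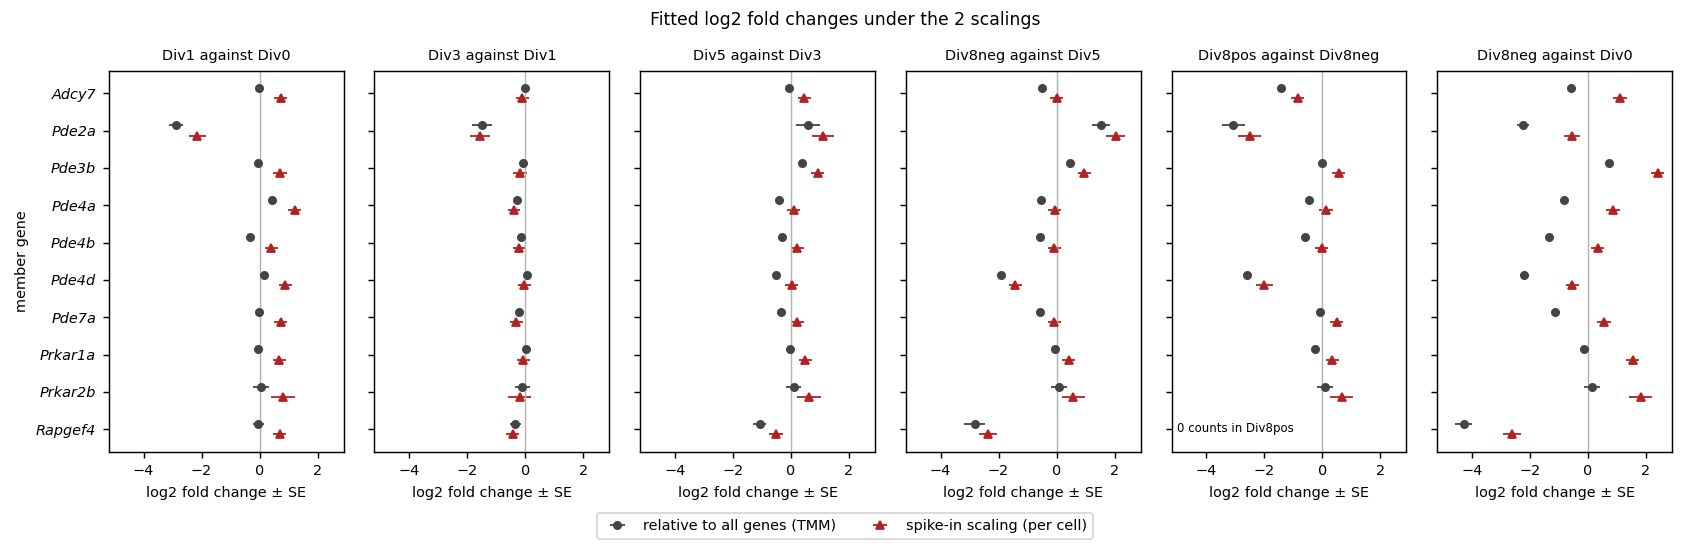
Fitted log2 fold changes (horizontal axis, bars are SE) of the 10 genes (vertical axis) in 6 comparisons, with circles relative to all genes and triangles with spike-in scaling. The triangles sit to the right of the circles in all panels but Div3 against Div1, and Rapgef4 has no point in Div8pos against Div8neg because Div8pos held 0 counts.

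Cell type markers were checked in the same libraries. Of the B cell markers, Cd79a was at 906 to 1354 CPM in the group means outside Div8pos and at 305 in Div8pos, Ms4a1 at 819 to 1088 and 118, Cd22 at 1876 to 2997 and 37.7, and Pax5 at 237 to 386 and 9.47. The plasma cell list (Sdc1, Prdm1, Xbp1, Irf4 and Igj) summed to 289 to 770 CPM outside Div8pos and to 5074 and 5155 in Div8pos; Sdc1 encodes CD138, on which these cells were sorted. Of other cell types, the macrophage list summed to 7.92 to 37.0 CPM, the neutrophil list to 2.00 to 58.7 with the higher value in host 197 in every group, the erythroid list to 0.617 to 17.1 and the platelet list to 2.56 to 13.99. Natural killer cell genes summed to at most 1.54 CPM. The dendritic cell list summed to 2.32 to 71.6 CPM, highest in Div5 and Div8neg, where Itgax was at 55.6 and 51.8, Zbtb46 at 7.38 and 5.44, Xcr1 at 0.627 and 0.655, Siglech at 0.0801 and 0.111 and Clec9a at 0. Itgax and Zbtb46 were at 4.22 and 3.70 in Div0 and at 1.35 and 0.132 in Div8pos. The T cell list was at 0.994 to 2.82 CPM outside Div8pos and at 33.4 and 43.5 in it, where Cd28 made up 37.1 and Cd3g and Trat1 were at 0. The part that such cells have in the levels of the 10 genes was not tested.

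The rest of the pathway was followed through 10 lists of other genes, 131 in all, chosen by known function: other cyclases and phosphodiesterases, PKA genes, EPAC and RAP1 genes, A-kinase anchors, G proteins, receptors, CREB factors, CREB targets, and cGMP and export genes. The table held 129 of them and 77 passed the filter on low counts. In Div1 against Div0, 2 rose and 5 fell of 77 (median log2 -0.04, all genes -0.01), where 9.35% of all genes were called. Ptger4, the gene of a prostaglandin E2 receptor that raises cAMP, rose from 14.4 ± 0.625 to 21.6 ± 1.62 CPM (1.49-fold, edgeR adjusted p = 0.00369). Gucy2c, a receptor guanylyl cyclase gene best known in the gut, rose from 2.87 ± 0.0555 to 6.65 ± 0.292 CPM (2.32-fold, edgeR adjusted p = 0.00148). The anchor gene Akap12 fell 1.48-fold in CPM (edgeR adjusted p = 0.00291), a direction that turned with spike-in scaling (log2 0.18, SE 0.22). Prkx, Akap8 and Acbd3, named after their values were seen, also fell. With spike-in scaling 60 of the 77 were called, each of them higher, where 81.7% of all genes were called, 9810 higher and 16 lower.

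In Div3 against Div1, 2 of the 77 rose and 2 fell, where 3.42% of all genes were called. Gucy2c rose again, 2.06-fold to 13.8 ± 1.70 CPM (edgeR adjusted p = 0.00151). Akap5, which encodes an anchor that holds PKA at the membrane, rose 1.97-fold from 14.4 ± 2.08 to 28.2 ± 2.15 CPM (edgeR adjusted p = 0.000488). Akap12 fell 1.43-fold (edgeR adjusted p = 0.0205) and was not called by DESeq2 (adjusted p = 0.0524) or without the Div1 or the Div3 library of host 197.

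In Div5 against Div3, 11 rose and 11 fell of 77, where 26.6% of all genes were called. With spike-in scaling 29 were called, each of them higher, where 45.7% of all genes were called, 5447 higher and 48 lower. Adora2a, the gene of an adenosine receptor that couples to Gs, rose 1.91-fold from 11.4 ± 0.769 to 21.8 ± 1.30 CPM (edgeR adjusted p = 6.53e-05). Rap1gap2, whose product switches RAP1 off, rose 1.84-fold to 20.9 ± 0.774 CPM (edgeR adjusted p = 4.53e-05). Akap1, the anchor gene for PKA at mitochondria, rose 1.80-fold to 16.4 ± 2.65 CPM (edgeR adjusted p = 0.000645). Fosb, an immediate-early transcription factor gene, rose 1.72-fold to 71.8 ± 16.1 CPM (edgeR adjusted p = 0.046), and this call was lost by DESeq2 (adjusted p = 0.183) and, among others, without Div3 of host 196 (edgeR adjusted p = 0.362) or Div5 of host 197 (0.329). Of the 8 CREB family genes 4 fell and 0 rose, where 26.6% of all genes were called: Crtc2, Crtc3, Crebbp and Ep300, coactivators all, named after their values were seen.

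In Div8neg against Div5, 18 rose and 24 fell of 77, against 34 and 3 with spike-in scaling. The shares of all genes called were 53.4% and, with spike-in scaling, 45.4% (5088 higher and 367 lower). Pkib, which encodes a PKA inhibitor peptide, fell 2.54-fold from 22.1 ± 2.02 to 8.69 ± 1.04 CPM (edgeR adjusted p = 8.77e-07). Akap7 fell 2.31-fold to 2.70 ± 0.0317 CPM (edgeR adjusted p = 7.23e-05), and both genes were also lower with spike-in scaling. Akap1 rose 2.23-fold to 36.4 ± 0.707 CPM (edgeR adjusted p = 1.15e-06) and Fosb 2.00-fold to 143 ± 7.93 (edgeR adjusted p = 0.00344; 0.0512 by DESeq2 and 0.0553 without Div5 of host 196). Of 8 CREB family genes 6 fell and 1 rose, of 14 A-kinase anchor genes 7 fell and 2 rose, and of 8 receptor genes 4 rose and 1 fell, where 53.4% of all genes were called. Over the whole span, Div8neg against Div0, 25 rose and 34 fell of 77, against 66 and 4 with spike-in scaling. The shares of all genes called were 71% and, with spike-in scaling, 90.8% (10725 higher and 189 lower). Pkib fell 5.97-fold from 52.1 ± 2.96 CPM (edgeR adjusted p = 4.73e-11), and Akap1 (5.37-fold), Gucy2c (5.18-fold) and Rap1gap2 (4.96-fold) rose, each in the same direction on both scales.

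In Div8pos against Div8neg 17 rose and 47 fell of 77, with a median log2 of -0.73 against 0.01 for all tested genes. With spike-in scaling 23 were higher and 17 lower, and the median was -0.14 against 0.60 for all genes. Of all genes 66.5% were called with that scaling, 6231 higher and 1761 lower. Gucy2c, at 14.8 ± 2.60 CPM in Div8neg, was left with 2 counts in each Div8pos library (0.168 ± 0.0115 CPM; log2 -6.39, SE 0.33, edgeR adjusted p = 5.45e-11). Akap5 fell 18.99-fold from 15.3 ± 0.113 to 0.784 ± 0.362 CPM (edgeR adjusted p = 3.72e-10) and Adora2a 8.20-fold from 40.9 ± 0.173 to 4.96 ± 0.788 (edgeR adjusted p = 4.32e-12). Gnaz, whose product is an inhibitory G protein alpha subunit, rose 12.1-fold from 1.72 ± 0.266 to 21.0 ± 6.82 CPM (edgeR adjusted p = 1.66e-07). These 4 kept their direction with spike-in scaling. Of 8 tested genes on the list of other phosphodiesterases 6 fell and 1 rose, where 72% of all genes were called. Among them, named after their values were seen, Pde8a fell from 27.5 ± 2.24 to 12.1 ± 1.78 CPM and Pde12 rose (log2 0.58, SE 0.07). Pde12, and Pde6d among those that fell, do not code for catalytic subunits of cyclic nucleotide phosphodiesterases.

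The PKA genes and the second EPAC gene give a frame for the effectors, and were named after their values were seen. The catalytic subunit genes Prkaca and Prkacb stood at 91.1 ± 1.31 and 99.1 ± 4.17 CPM in Div8neg and at 59.3 ± 7.18 and 58.0 ± 6.37 in Div8pos (log2 -0.62 and -0.77, edgeR adjusted p = 4.37e-06 and 1.74e-07). With spike-in scaling neither was called between these groups (log2 -0.04 and -0.18, edgeR adjusted p = 0.869 and 0.484). Prkar2a, a type II regulatory subunit gene, rose from 29.2 ± 3.53 CPM in Div0 to 57.1 ± 0.495 in Div8neg (log2 0.97, edgeR adjusted p = 9.61e-07) and to 73.0 ± 10.03 in Div8pos (log2 0.36, edgeR adjusted p = 0.00448), also with spike-in scaling. Rapgef3, which encodes EPAC1, was at 2.38 ± 0.309 CPM in Div8neg and 9.70 ± 0.602 in Div8pos (log2 2.03, SE 0.26, edgeR adjusted p = 4.06e-06), where Rapgef4 for EPAC2 had 0 counts. Rapgef3 stood at 0.6005 to 1.23 CPM in the mean of the groups up to Div5.

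**Figure D5:**
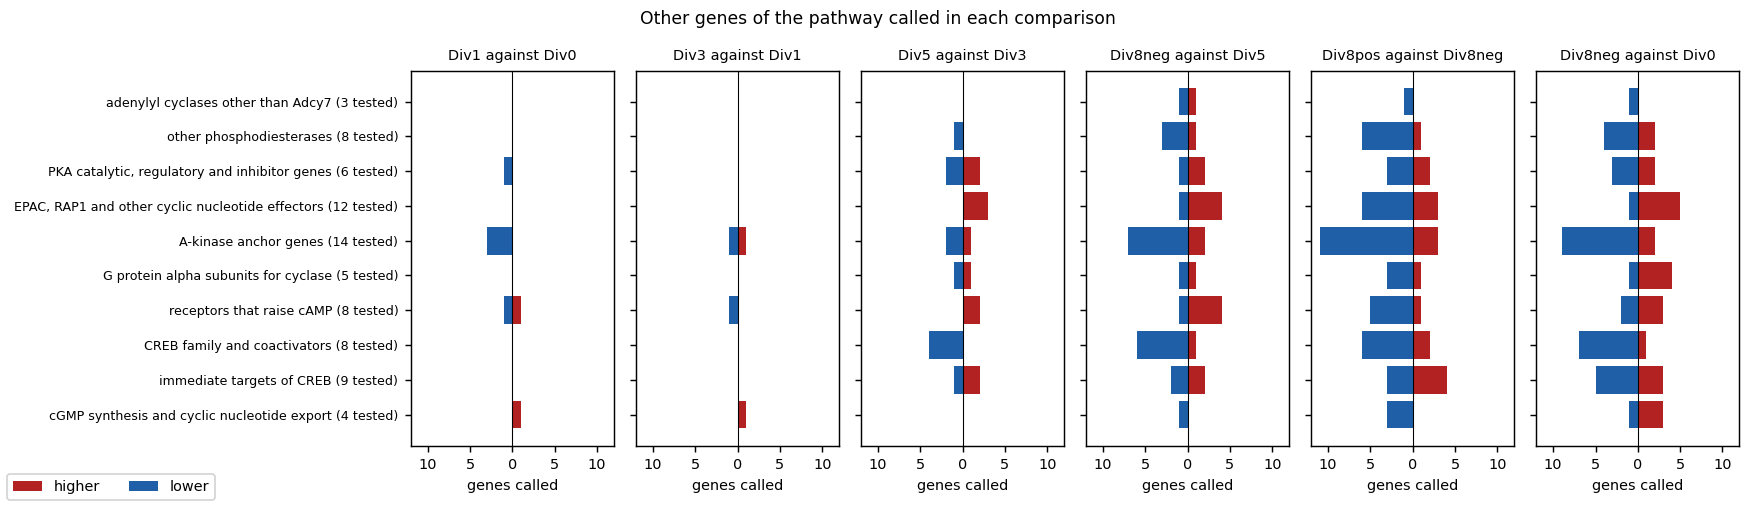
Numbers of other pathway genes called higher (right of 0) and lower (left of 0) by edgeR relative to all genes, for 10 lists on the vertical axis and 6 comparisons in panels. Calls are few up to Div3, 11 and 11 in Div5 against Div3, and 17 higher and 47 lower in Div8pos against Div8neg. Of all tested genes, 26.6% were called in Div5 against Div3 and 72% in Div8pos against Div8neg.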

How the data were processed

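Messenger RNA was sequenced from 12 libraries of sorted B cells, 2 hosts for each of 6 groups. The deposited counts are whole reads per gene over exons of the mm9 gene models, per the file headers; the submitters' processing notes name Picard, R 3.2.2 and mm9, and no source used here gives the aligner or the counting program. The deposited FPKM values are proportional to counts over exon length within each library, as checked, and served only as an alternative for the order of genes. The deposited mRNAs per cell, a signal the authors made by multiplying FPKM by 1 spike-in factor per library (0.139 to 0.769), gave the per-cell levels. Rows without a symbol (90, or 0.0498 to 0.0943% of counts) were left out.

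The count test was that of edgeR 4.0.16 (R 4.3.3), after filterByExpr and TMM scaling (factors 0.946 to 1.02), with a quasi-likelihood fit of group means over all 12 libraries, and Benjamini-Hochberg adjustment. The scripts were tested on simulated data. The members, lists and tests were chosen with earlier results of these data known. Levels are mean ± SD of 2 libraries, for which an exact permutation test cannot go below p = 0.333, so none is given. "Higher", "lower", "rose" and "fell" of fitted changes mean called genes. A floor of 3 counts over a group stands in for 0. The 4 genes Pde6d, Pde6g, Pde6h and Pde12 were left out of the phosphodiesterase shares, a choice made after the shares were seen. They do not code for catalytic subunits of cyclic nucleotide phosphodiesterases.

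Besides the 10 members, the rule for named genes took in each comparison the up to 4 called pathway genes with the largest log2 change and at least 5 CPM in the higher group. It also took, for the 2 members of widest range, the 3 genes of most similar pattern. Some genes taken by these rules or lists are not reported here, though counts over the lists include them. Marker lists covered B, plasma, T and natural killer cells, macrophages, neutrophils, dendritic cells, erythroid cells and platelets.

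Same-numbered libraries come from the same host animal, so the numbers pair them; host differences correlated between groups at 0.0226 to 0.271 (median 0.121, 15 pairs of groups). The main fit has no block. Alternatives were DESeq2 1.42.0, spike-in library sizes, RLE factors, no filter, the 2 compared groups alone, the host as a block, both block and spike-ins, and each library left out. Upstream sequences are from RefSeq (GRCm38.p6). Protein sequences were not used here.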

Additional observations from a re-analysis of the deposited data

How the results depend on the processing

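The choice that moved most was the scale. With spike-in scaling, and in brackets with spike-in scaling and the host as a replicate block, log2 changes that had been below 0 for Div1 against Div0 were Pde3b 0.71 (0.70), Pde4b 0.41 (0.41), Pde7a 0.73 (0.73), Rapgef4 0.69 (0.70), Adcy7 0.73 (0.72), Prkar1a 0.68 (0.68) and Akap12 0.18 (0.18). For Div5 against Div3 they were Pde4a 0.10 (0.12), Pde4b 0.22 (0.23), Pde4d 0.028 (0.034), Pde7a 0.22 (0.22), Adcy7 0.47 (0.48) and Prkar1a 0.49 (0.50). For Div8neg against Div5 they were Prkar1a 0.42 (0.42) and, with spike-ins alone, Adcy7 0.0007. In Div3 against Div1, Pde4d and Prkar1a turned from above 0 to -0.029 (-0.026) and -0.060 (-0.057). For Div8pos against Div8neg they were Pde3b 0.56 (0.57), Pde4a 0.13 (0.14), Pde7a 0.50 (0.50) and Prkar1a 0.35 (0.35). For Div8neg against Div0 they were Pde4a 0.86 (0.86), Pde4b 0.33 (0.34), Pde7a 0.55 (0.55), Adcy7 1.10 (1.10) and Prkar1a 1.54 (1.54). The counts of all genes called moved with it to 9826 (9982) for Div1 and Div0, 89 (100) for Div3 and Div1 and 5495 (6392) in Div5 against Div3. Members called became 8 (9), 1 (1) and 2 (4) in those comparisons and 4 (4) in Div8neg against Div5. Other pathway genes called became 60 (60) in Div1 against Div0, 35 in Div5 against Div3 with both, and 40 in Div8pos against Div8neg.

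With the host as a replicate block alone, 1713 genes were called in Div1 against Div0 against 1124 without it and 755 in Div3 against Div1 against 411, and other pathway genes called there were 12 against 7 and 7 against 4. Rapgef4 in Div3 against Div1 passed with the block (edgeR adjusted p = 0.0472). Without spike-ins the block changed no other call of the 10 members, or of the pathway genes taken by rule in each comparison. Calls of the other genes named were not compared with and without the block. With spike-in scaling the block added Prkar2b in Div1 against Div0 (edgeR adjusted p = 0.0493) and Prkar1a (0.0436) and Rapgef4 in Div5 against Div3 to the calls among the 10. In Div3 against Div1, 738 genes and 8 other pathway genes were called with no filter, 178 genes and 0 members with the 2 groups alone (edgeR; 2 of the 10 had an unadjusted p under 0.05, by DESeq2 2 too), and 1 member by DESeq2.

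With each library left out, where a group left with 1 library is assumed to vary like the others, genes called ranged from 623 to 1210 for Div1 and Div0, 138 to 405 for Div3 and Div1, 1197 to 3219 in Div5 against Div3, 4776 to 6476 in Div8neg against Div5, 7840 to 8777 in Div8pos against Div8neg and 7550 to 8644 in Div8neg against Div0. Members called ranged from 3 to 3, 0 to 2, 4 to 6, 8 to 8, 7 to 7 and 8 to 9 in the same order, and other pathway genes from 4 to 7, 3 to 5, 13 to 23, 32 to 44, 62 to 67 and 50 to 62. Directions that turned when a library was left out belonged to changes that were not called. Their log2 values ranged, for Div1 against Div0, over -0.097 to 0.025 (Pde3b), -0.12 to 0.12 (Pde7a), -0.18 to 0.11 (Rapgef4), -0.059 to 0.050 (Adcy7), -0.094 to 0.0061 (Prkar1a) and -0.17 to 0.23 (Prkar2b). For Div3 against Div1 they ranged over -0.0041 to 0.12 (Pde4d), -0.071 to 0.027 (Adcy7), -0.034 to 0.066 (Prkar1a) and -0.27 to 0.13 (Prkar2b). For Div5 against Div3 they ranged over -0.13 to 1.09 (Pde2a, negative without Div5 of host 197) and -0.057 to 0.22 (Prkar2b), for Div8neg against Div5 over -0.055 to 0.23 (Prkar2b), and for Div8pos against Div8neg over -0.063 to 0.055 (Pde3b). Pde7a in Div1 against Div0 was at 0.0010 by DESeq2, and Pde3b in Div8pos against Div8neg at 0.018 by DESeq2, 0.016 with RLE factors and 0.0001 with no filter. The order of the members by FPKM was the same in all 6 groups. Depth limits Prkar2b, Rapgef4 in Div8neg and Pde2a after Div0.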

Other observations

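Genes of like pattern were looked for among 6910 tested genes with a range of at least 1 in mean log2 CPM, by Pearson's r over the 6 group means. The 6 points share libraries and scaling, and r is given as a description with no p. For Rapgef4 the closest were Pxdc1 (r = 1.000), from 190 CPM in Div0 to 65.8 in Div8neg and 23.0 in Div8pos, Coq10a, from 28.5 to 14.7 and 7.41, and Asb13, from 41.5 to 10.8 and 2.97. The r does not measure the size of a fall, and Rapgef4 itself went from 29.3 to 1.46 and 0. Its Div8pos point, from 0 counts, is set by a prior count of 1 added before taking the log. For Pde2a they were Akap12 (r = 0.987), itself an A-kinase anchor gene, Hopx (r = 0.986) and Agpat2 (r = 0.979). Hopx went from 14.5 CPM in Div0 to 4.14 in Div3, 6.97 in Div8neg and 2.85 in Div8pos, and Agpat2 from 8.36 to 1.65, 3.66 and 1.04. Each of these 3 was lower in Div3 than in Div0, higher in Div8neg than in Div3 and lowest in Div8pos, and Akap12 went from 36.1 to 17.1, 25.6 and 13.8.

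Among the 10 genes, Rapgef4 and Pde4d had the closest courses over the 6 group means of log2 CPM (highest r, 0.995). The Div8pos point of Rapgef4, from 0 counts, is set by a prior count of 1 added before taking the log. Pde3b and Pde7a had the most opposed courses on that scale (lowest r, -0.963). Per cell the means of both were higher in Div8pos than in Div0, 7.56-fold for Pde3b and 2.01-fold for Pde7a. The same libraries chose the genes, so these values are a description.

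Crem, the CREB family gene that also encodes the inducible repressor ICER, was 1 of 2 genes of its list of 8 called higher in Div8pos against Div8neg, with Atf1 (log2 0.39, edgeR adjusted p = 2.71e-05), while the other 6 were called lower. These genes were named after their values were seen. Crem was at 4.31 ± 0.176 CPM in Div8neg and 15.7 ± 0.239 in Div8pos (log2 1.86, SE 0.14, edgeR adjusted p = 6.22e-09; log2 2.45 with spike-in scaling). Creb1 went from 105 ± 0.425 to 55.2 ± 2.99 CPM over the same step (log2 -0.92, edgeR adjusted p = 2.68e-08), and with spike-in scaling it was not called (log2 -0.34, edgeR adjusted p = 0.174).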
